A study of Mus musculus with 4 samples.

Results

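The Socs and Cish genes and the Irak kinases are 10 genes that act on cytokine and Toll-like receptor signals. They were chosen by symbol from the 24148 genes of the count table (Socs1, Socs2, Socs3, Socs4, Socs6, Cish, Irak1, Irak2, Irak3 and Irak4), and 6 of the 10 averaged 10 or more counts per library. RNA was measured by sequencing of ribosomal RNA-depleted total RNA from cultured primary microglia of the mouse, which are the brain's own macrophages and were detached from mixed glia by shaking. One group of 2 libraries received LPS (lipopolysaccharide), an outer membrane molecule of Gram-negative bacteria for which Tlr4 is the receptor, at 10 ng/ml for 4 h, and the other group of 2 libraries was labelled control. All libraries share the same culture steps, the labels mention no sorting of the cells, and no strain or age of the animals is given. Whether the libraries of a group stem from different animals or cultures is not stated, so p-values reflect the spread of these samples alone, and that spread may be technical.

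IRAK proteins carry the signal of Toll-like and interleukin-1 receptors away from the adaptor MyD88: Irak4 is the first kinase of that chain and phosphorylates Irak1 and Irak2, while Irak3, also called IRAK-M, is a kinase-like protein of myeloid cells that restrains the same chain. SOCS proteins and Cish hold an SH2 domain, which binds phosphorylated tyrosines, and a SOCS box, which recruits a ubiquitin ligase. They limit signals that cytokine receptors send through Jak kinases and Stat factors, and several of their genes are themselves targets of Stat factors in a feedback loop.

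The libraries held 5095630 and 4592474 counts in LPS replicates 1 and 2, against 3617176 and 4080568 in control replicates 1 and 2. Of 10 microglia markers, 8 had counts in every library, and their summed level was 2051 and 1738 CPM (counts per 1e6 counts, with library totals scaled by TMM) in LPS libraries, against 3208 and 2452 CPM in control libraries. The marker Itgam had 0 counts in all 4 libraries and Trem2 had at most 2. Itgam and Trem2 are each listed under 2 RefSeq transcript accessions. As described below for members, a low count in that case does not show a low transcript level. Astrocyte markers summed to 96.5 and 447 CPM in LPS libraries and to 83.1 and 318 CPM in control libraries, and oligodendrocyte lineage markers to 414 and 60.4 CPM in LPS libraries and to 404 and 68.5 CPM in control libraries, so both lists split the libraries by replicate number. Neuron, fibroblast, endothelial, neutrophil and lymphocyte markers each summed to at most 65.7 CPM in any library. Some of these markers also have more than 1 accession. Among them, Rbfox3, Snap25, Syt1 and Map2 had at most 3 counts in any library, and Pdgfrb, Pecam1 and S100a9 had 0 in all. The neuron, fibroblast, endothelial and neutrophil sums are therefore uncertain and do not show that such cells were absent. Of the 32 markers that reached a mean of 10 counts, none on the lymphocyte list among them, 0 passed edgeR's or DESeq2's test between LPS and control. Of these 32, 6 had an unadjusted edgeR p under 0.05, as did 2033 of all 9548 tested genes. In such bulk RNA, fewer cells of a type and less RNA per cell cannot be told apart.

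The count table lists RefSeq transcript accessions, and 4 members have more than 1. Socs1 has 2 accessions, Socs2 has 4, Irak1 has 5 and Irak2 has 2, and these 13 accessions together held 19 counts over the 4 libraries. In the GENCODE transcripts paired with them, at most 10.8% of the exonic bases of any accession lay outside the other accessions of its gene. The 5 accessions with no base of their own had 0 counts, and all 19 counts fell among the 8 with some. Within these 8, NM_001168657 of Socs2 (92 bases of its own) and NM_001177975 of Irak1 (7 bases) also had 0 counts. For Socs1, NM_001271603 has 123 bases of its own (4.23%) and 4 counts, and NM_009896 has none and 0 counts. For Irak2 the 5 counts lay on NM_172161, which has 222 bases of its own, and none on NM_001113553, which has no base of its own. The other 6 members have 1 accession each. Among all named genes, 46.8% of those with 1 accession and 11.7% of those with more reached a mean count of 10. The sources used here do not say how reads that match several accessions were assigned, so the levels of Socs1, Socs2, Irak1 and Irak2 are uncertain and a low count does not show a low transcript level.

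**Figure D1:**
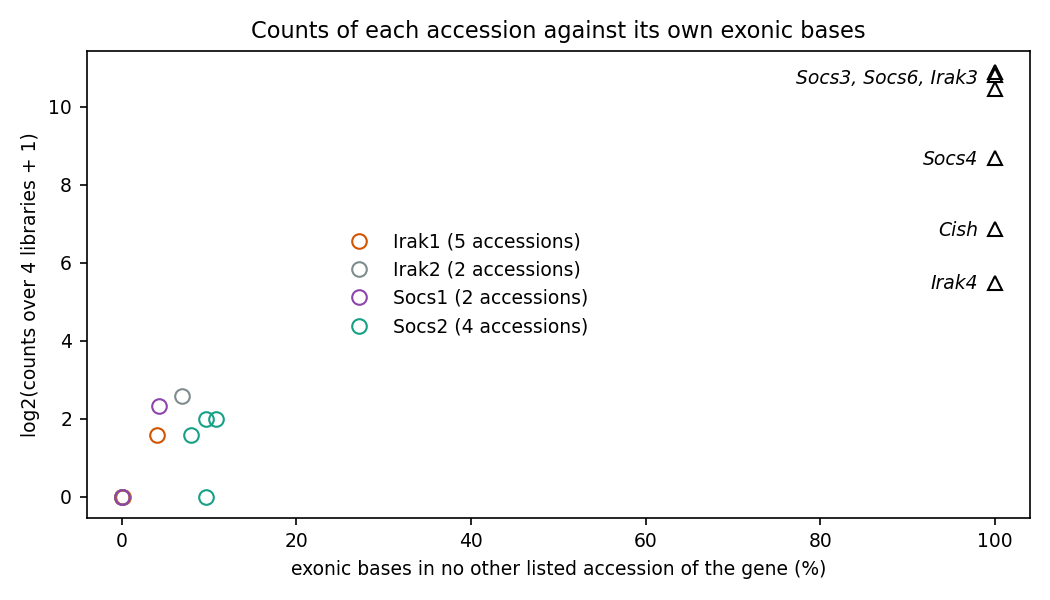
Each point is 1 accession of a member gene. The horizontal axis gives the share of its exonic bases (%) that no other listed accession of the gene holds, and the vertical axis gives log2(counts over the 4 libraries + 1). The 13 accessions of Socs1, Socs2, Irak1 and Irak2 lie at or below 10.8%, with 19 counts in all, and the 6 members with 1 accession (triangles) lie at 100% with 44 or more counts.

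These 4 genes were not tested. Socs1, an inhibitor that blocks Jak kinases directly, had 4 and 0 counts in LPS and 0 and 0 counts in control. Socs2, a limiter of growth hormone signalling, had 2 and 1 counts in LPS and 3 and 2 counts in control, a ratio from counts of 0.646 with a 95% interval of 0.100 to 3.32 (Clopper-Pearson, counting error only). Irak1, a kinase downstream of MyD88, had 1 and 0 counts in LPS and 0 and 1 counts in control. Irak2, a related kinase that takes part in prolonged signalling, had 2 and 1 counts in LPS and 0 and 2 counts in control. No comparison was made from these counts beyond the Socs2 ratio, whose interval includes 1.

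**Figure D2:**
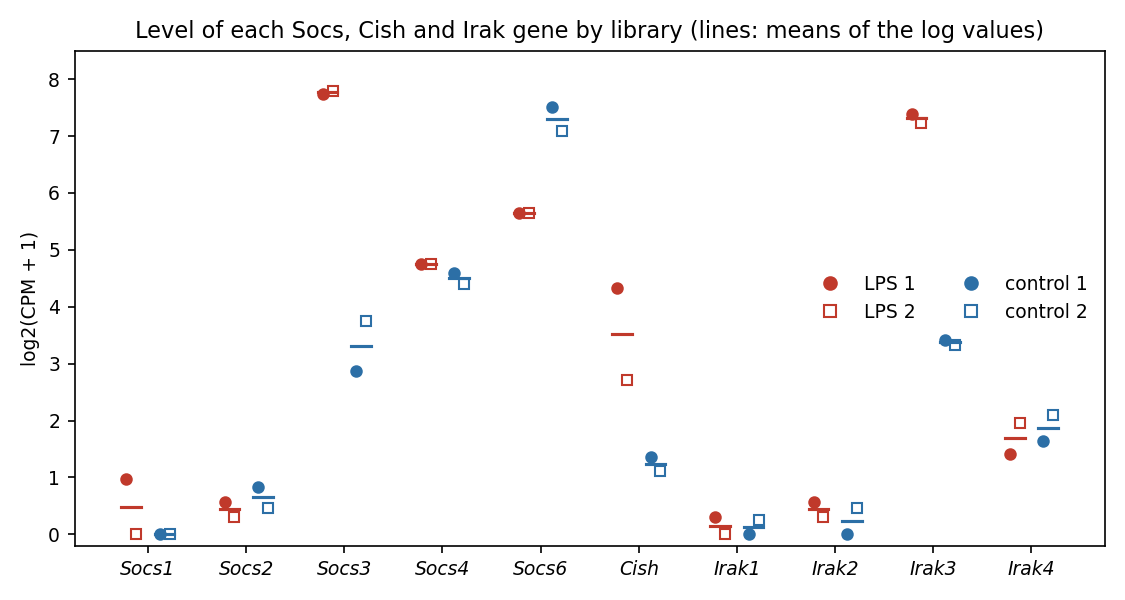
Level of each of the 10 members as log2(CPM + 1), with LPS libraries in red to the left of control libraries in blue, circles for replicate 1 and squares for replicate 2, and lines at the mean of the log values of each group. Socs3 and Irak3 lie higher in both LPS libraries than in both controls, Socs6 lies lower, and Socs1, Socs2, Irak1 and Irak2 lie near 0.

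The regions at the starts of the members whose fold changes were largest are shown first, since the search for Stat and other sites refers to them. The sequences come from the RefSeq promoter table of build GRCm38.p6. The Socs3 stretch is the 250 bases before the RefSeq start of its window (chr11:117969367-117969616, minus strand). This start lies 180 bases upstream of the start of the paired GENCODE transcript. The RefSeq interval of Socs3 reaches further upstream, to 117970336, so the stretch lies inside it. The Irak3 stretch is the 188 bases before the GENCODE start of its transcript (chr10:120201660-120201847, minus strand). It lies inside the RefSeq interval of Irak3, which reaches upstream to 120202130. The Cish stretch is 20 bases at its RefSeq start (chr9:107296659-107296678, plus strand), inside the first exon of its GENCODE transcript. Capitals mark matches to the Stat letters TTCNNNGAA.
Socs3: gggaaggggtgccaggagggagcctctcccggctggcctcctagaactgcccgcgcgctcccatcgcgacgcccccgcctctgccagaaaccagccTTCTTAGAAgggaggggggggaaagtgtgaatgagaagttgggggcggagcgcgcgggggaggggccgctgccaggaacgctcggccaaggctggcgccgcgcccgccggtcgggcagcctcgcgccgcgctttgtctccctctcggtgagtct
Irak3: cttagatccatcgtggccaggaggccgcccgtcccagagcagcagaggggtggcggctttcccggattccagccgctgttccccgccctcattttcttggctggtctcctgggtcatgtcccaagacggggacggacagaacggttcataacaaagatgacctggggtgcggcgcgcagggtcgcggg
Cish: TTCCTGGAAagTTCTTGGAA

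In windows of 300 bases (250 before to 50 after each RefSeq start), both strands were searched for the Stat letters TTCNNNGAA, the interferon-stimulated response element (GAAA, any 2 bases, GAAA), the NF-kB letters (GGG, any 3 bases, TTCC) and the AP-1 letters TGANTCA. The search covered 8 members (10 windows). Socs6 was left out of it, and Socs2 had no window, so neither has a motif result here. Socs3 held 1 Stat match, whose first base lies at position -154 from the start, and Cish held 2, beginning at bases 1 and 12. Socs1 held 2 overlapping matches to the interferon-stimulated response element, beginning at positions -83 and -77. No other searched member window held any of the 4 motifs, the windows of Irak3 included. Among all 32851 windows of this length, 8.30% held the Stat letters, 3.44% the interferon-stimulated response element, 5.56% the NF-kB letters and 7.81% the AP-1 letters. A match is a description of these letters only, and a window without a match holds no information on binding elsewhere.

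Of the 6 tested members, 2 were higher and 1 was lower in LPS in edgeR's quasi-likelihood test, with Benjamini-Hochberg adjustment over 9548 genes and a threshold of 0.05. Socs3 and Irak3, both known as brakes on inflammatory signals, were higher, and Socs6 was lower. As background, 6.55% of all tested genes were called higher and 1.79% lower (625 and 171 genes). With total-count scaling these numbers were 471 and 483, and the median over all tested genes moved to a log2 fold change of -0.48, from -0.05 with TMM.

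Socs3 (NM_007707; chromosome 11, 117966079 to 117970336, GRCm38) encodes the SOCS protein that binds gp130, the shared chain of the interleukin-6 receptor family, and inhibits the attached Jaks. It had 892 and 923 counts in LPS and 24 and 65 counts in control, or 213 and 221 CPM in LPS libraries and 6.31 and 12.5 CPM in control libraries. Both LPS libraries lay far above both controls, an order that 24.7% of all tested genes shared at any distance. On the log scale the controls differed more from each other than the LPS libraries did. The log2 fold change was 4.51 ± 0.37 (SE; 22.7-fold higher, adjusted p = 0.0023). Within libraries of the same number the log2(CPM + 1) difference was 4.87 for number 1 and 4.04 for number 2. Without control replicate 2 the log2 fold change was 5.07, and without control replicate 1 it was 4.11.

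Irak3 (NM_028679; chromosome 10, 120141648 to 120202130) had 700 and 622 counts in LPS and 37 and 47 counts in control. In CPM these were 167 and 149 in LPS libraries and 9.73 and 9.04 in control libraries. There was little spread within either group and no overlap between them, the latter as for 24.7% of all tested genes in this direction. The log2 fold change was 4.07 ± 0.23 (16.8-fold higher, adjusted p = 6.8e-04), and the differences within numbers 1 and 2 were 3.97 and 3.90. By unadjusted p, Irak3 ranked 58 and Socs3 ranked 132 among the 9548 genes.

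Socs6 (NM_018821; chromosome 18, 88865169 to 88894364) encodes a SOCS protein linked to receptor tyrosine kinases and insulin signalling. It had 207 and 206 counts in LPS and 689 and 705 counts in control, or 49.4 and 49.4 CPM in LPS libraries and 181 and 136 CPM in control libraries. Both LPS libraries lay below both controls, as was so for 25.8% of all tested genes. The log2 fold change was -1.68 ± 0.23 (3.20-fold lower, adjusted p = 0.012), with differences of -1.85 and -1.44 within numbers 1 and 2. Leaving out LPS replicate 1 (-1.67, adjusted p = 0.089) or LPS replicate 2 (-1.67, adjusted p = 0.085) ended the call, and the range of the adjusted p over the 13 alternatives was 6.1e-09 to 0.089.

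Cish (NM_009895; chromosome 9, 107296659 to 107302784), a Stat5 target that limits signals of growth factor and cytokine receptors, did not pass the test. It had 80 and 23 counts in LPS and 6 and 6 counts in control, so it reached the minimum mean of 10 only through the LPS libraries. LPS replicate 1 stood at 19.1 CPM (95% Poisson interval 15.1 to 23.8) and LPS replicate 2 at 5.52 CPM (3.50 to 8.28), against 1.58 CPM (0.579 to 3.43) in control replicate 1 and 1.15 CPM (0.423 to 2.51) in control replicate 2. Both LPS libraries lay above both controls, as was so for 24.7% of all tested genes. The LPS libraries differed from each other by more than their counting intervals. The log2 fold change was 3.17 ± 0.74 (adjusted p = 0.065; 95% interval, not adjusted for multiple tests, 1.32 to 5.01). DESeq2 (3.20, adjusted p = 0.0027), the fit without a filter (3.26, adjusted p = 0.0043), the fit without control replicate 1 (3.37, adjusted p = 0.038) and the fit without LPS replicate 2 (3.81, adjusted p = 0.019) called it higher. Without LPS replicate 1 the value was 2.02 (adjusted p = 0.20). The summed level of oligodendrocyte lineage markers was also higher in LPS replicate 1 than in LPS replicate 2 (414 against 60.4 CPM), as it was in control replicate 1 against control replicate 2 (404 against 68.5 CPM), and its part in the Cish level was not tested.

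Socs4 and Irak4 did not pass the test. Socs4 (NM_080843; chromosome 14, 47276920 to 47296102), which has been tied to the receptor of epidermal growth factor, had 108 and 108 counts in LPS and 88 and 105 counts in control. Its levels were 25.8 and 25.9 CPM in LPS libraries and 23.1 and 20.2 CPM in control libraries. These did not overlap, as was so for 24.7% of all tested genes in this direction. The log2 fold change was 0.26 ± 0.24 (adjusted p = 0.63; 95% interval -0.33 to 0.84), and -0.16 with total-count scaling. Irak4 (NM_029926; chromosome 15, 94543613 to 94568317) had 7 and 12 counts in LPS and 8 and 17 counts in control, close to the minimum for testing. Its levels of 1.67 and 2.88 CPM in LPS libraries and 2.10 and 3.27 CPM in control libraries overlapped. The log2 fold change was -0.26 ± 0.52 (adjusted p = 0.85), and its 95% interval of -1.55 to 1.03 leaves room for a 2-fold change in either direction.

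**Figure D3:**
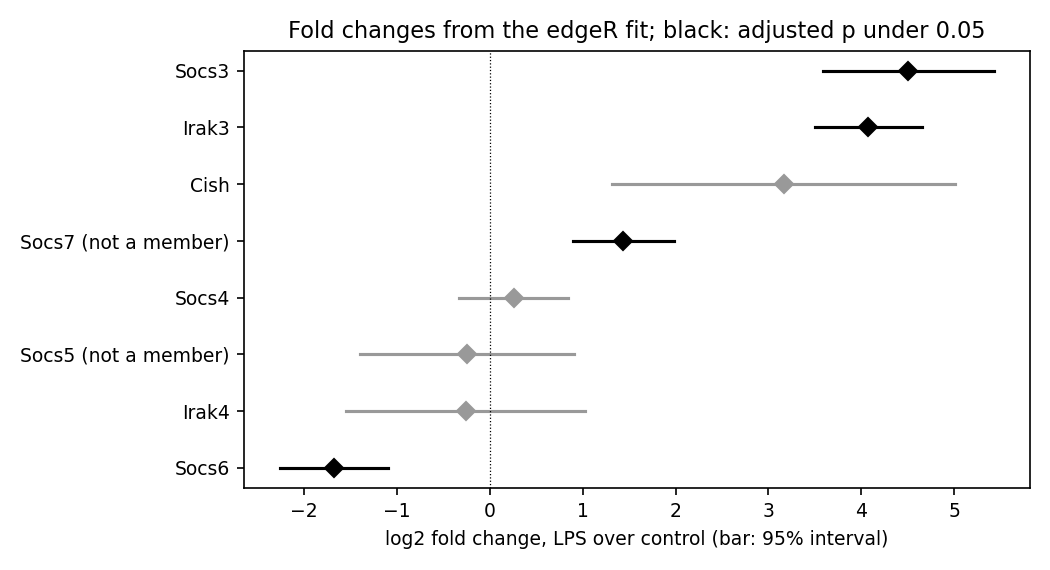
Log2 fold change of LPS over control from the edgeR fit for the 6 tested members and for Socs5 and Socs7, with bars for the 95% interval. Genes with an adjusted p under 0.05 are black. Socs3 (4.51) and Irak3 (4.07) lie to the right of 0 and Socs6 (-1.68) to the left, and the interval of Cish (1.32 to 5.01) is the widest.

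Per kilobase of the paired GENCODE transcript, the order of levels differed between the groups. Counts refer to RefSeq transcripts. Their starts were compared with the GENCODE starts only for Socs3, Irak3 and Cish, and differed for each of these. The other genes were not compared. The lengths, and the order of genes with near levels, are therefore approximate. In LPS libraries Socs3 came first with 85.1 ± 2.33 CPM per kilobase (SD, n = 2), followed by Irak3 with 51.1 ± 4.10 and Socs6 with 16.9 in both libraries. Cish followed with 4.32 ± 3.37, Socs4 with 3.76 ± 0.0122 and Irak4 with 0.804 ± 0.301, and of these Cish and Socs4 were not separated beyond their spread. In control libraries Socs6 came first with 54.2 ± 11.0 CPM per kilobase. Socs3 with 3.69 ± 1.72, Socs4 with 3.15 ± 0.302 and Irak3 with 3.03 ± 0.157 overlapped one another. Irak4 with 0.949 ± 0.291 and Cish with 0.479 ± 0.105 were lowest in control.

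The family genes Socs5 and Socs7 lie outside the 10 members. Socs7 had 124 and 101 CPM in LPS libraries and 42.6 and 40.6 CPM in control libraries and was 2.71-fold higher (log2 1.44 ± 0.22, adjusted p = 0.016). It was not called with LPS replicate 1 left out (1.29, adjusted p = 0.12), with LPS replicate 2 left out (1.59, adjusted p = 0.057) or after quantile normalization (1.13, adjusted p = 0.071). Socs5 had 5.01 and 8.16 CPM in LPS libraries and 5.52 and 10.0 CPM in control libraries, which overlapped (log2 -0.25 ± 0.46, adjusted p = 0.84).

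Around the members, 92 genes of the same pathways were listed, of which 56 were tested, 13 were higher and 1 was lower, where 6.55% of all tested genes were called higher and 1.79% lower. The counts of each list below are to be read against these shares, and a single call says little about its list. Of the 36 not tested, 28 have more than 1 accession. Of the 13 higher genes, 6, all ligands, averaged under 10 counts in control and reached the minimum only through their LPS counts, so the filter itself favoured their calls. The median log2 fold change of the 56, these 6 included, was 0.45, against -0.05 for all genes tested.

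On the route from the receptor to the Iraks, 2 of 10 tested genes rose and none fell (median log2 fold change 0.47). The adaptor Myd88, which binds the Iraks, had 279 and 219 CPM in LPS libraries and 39.2 and 36.2 CPM in control libraries (log2 2.73 ± 0.23, adjusted p = 0.0024). The LPS co-receptor Cd14 had a log2 fold change of 2.47 ± 0.22 (adjusted p = 0.0026), a call lost after quantile normalization (1.41, adjusted p = 0.059). Among partners and targets below the Iraks, 2 of 8 rose and none fell (median 0.40). Peli1, a ubiquitin ligase that acts on Irak1, had 1219 and 874 CPM in LPS libraries and 99.6 and 77.3 CPM in control libraries (log2 3.57 ± 0.27, adjusted p = 0.0018). Tab2, an adaptor of the kinase Tak1, rose by 1.27 on the log2 scale (adjusted p = 0.023). This call ended when control replicate 2 (1.16, 0.052), LPS replicate 1 (1.10, 0.16) or LPS replicate 2 (1.42, 0.071) was left out, under total-count scaling (0.84, 0.065) and under quantile normalization (0.81, 0.15).

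On the cytokine side, 6 of 7 tested ligands that signal through Jaks rose and none fell. These are the 6 genes that passed the filter through LPS alone, and 10 of the 17 listed ligands were not tested, so the count of 6 in 7 does not describe the whole list. Il6, which signals through gp130, had 1111 and 860 CPM in LPS libraries and 1.05 and 1.54 CPM in control libraries (log2 9.51 ± 0.34, adjusted p = 2.9e-04). Csf3, the granulocyte growth factor, had 84 and 132 counts in LPS and 0 and 0 counts in control, at least 77.6-fold higher if the control group is allowed a floor of 3 counts. With no control counts, its rank among the 2 ligands that rose most depends on the fit. Il27, a cytokine of the interleukin-12 family that comes next by fitted value, had 227 and 159 CPM in LPS libraries and 0.263 and 0.577 CPM in control libraries (log2 8.68 ± 0.44, adjusted p = 4.6e-04), above the Csf3 bound of 6.28 on the log2 scale.

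Of 15 tested cytokine receptor chains, none rose and 1 fell (median 0.38). Il6ra, the binding chain for interleukin-6, had 3.10 and 4.08 CPM in LPS libraries and 16.6 and 15.6 CPM in control libraries (log2 -2.15 ± 0.33, adjusted p = 0.017). Neither the fit that left out LPS replicate 1 (-1.96, adjusted p = 0.13) nor the one that left out LPS replicate 2 (-2.35, adjusted p = 0.076) called it. The gp130 chain Il6st, named here after its values were seen because Socs3 binds it, had 67.8 and 90.9 CPM in LPS libraries and 98.1 and 82.1 CPM in control libraries (log2 -0.18 ± 0.24, adjusted p = 0.76).

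Of Jaks and Stats, 3 of 11 genes could be tested and 1 rose. Stat2, a factor of the type I interferon response, had 388 and 315 CPM in LPS libraries and 17.1 and 26.2 CPM in control libraries (log2 4.01 ± 0.30, adjusted p = 0.0016). The SOCS box ligase partner Cul5 had 0 counts in all 4 libraries and was not tested. It has 2 accessions, so this count does not show a low transcript level. Of 5 tested SOCS box ligase partners 1 rose and none fell (median 0.41). That gene, Cul2, a cullin scaffold, rose by 1.02 on the log2 scale (adjusted p = 0.040), and each fit without 1 library lost the call (values 0.92 to 1.14, adjusted p 0.093 to 0.27), as did total-count scaling (0.59, 0.17) and quantile normalization (0.67, 0.21). Among other Jak-Stat inhibitors 1 of 8 rose and none fell (median 0.29). Usp18, which removes Isg15 and holds back the interferon receptor, had 546 and 537 CPM in LPS libraries and 7.36 and 7.31 CPM in control libraries (log2 6.20 ± 0.22, adjusted p = 2.9e-04).

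**Figure D4:**
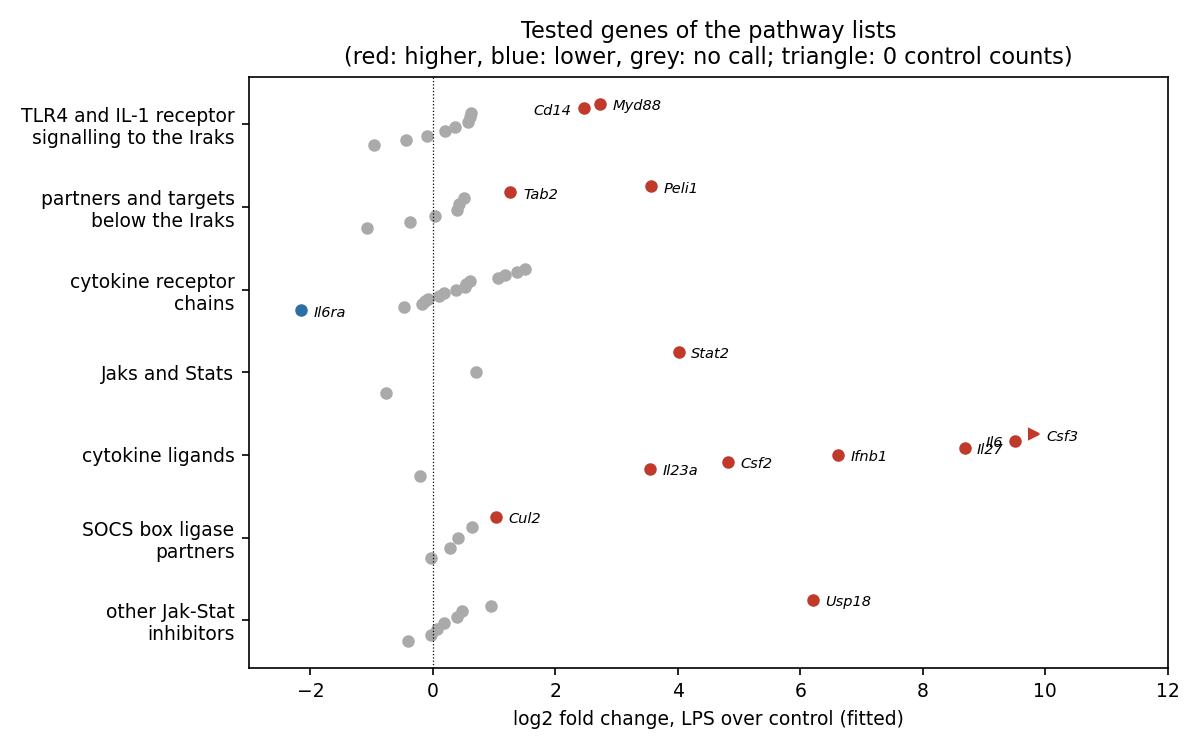
Log2 fold change of LPS over control for the tested genes of the 7 pathway lists, with called genes named (red higher, blue lower, grey without a call). The triangle marks Csf3, whose fitted value rests on 0 control counts and whose bound is 77.6-fold. The 6 ligands called higher were tested only because of their LPS counts, and Il6ra is the 1 gene called lower.

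By Euclidean distance between log2(CPM + 1) values centred on the mean of the 4 libraries, the genes nearest to Socs3 were Saa3 (distance 0.244), Oas2 (0.299) and Ifi35 (0.353). Those nearest to Irak3 were Nlrc5 (0.212), Parp12 (0.231) and Malt1 (0.231). Saa3, an acute phase protein, had 1403 and 1501 CPM in LPS libraries and 56.5 and 83.8 CPM in control libraries. Nlrc5, an activator of MHC class I genes, had 501 and 377 CPM in LPS libraries and 27.1 and 23.8 CPM in control libraries. These distances describe 4 libraries, in which any gene with a like fold change lies near.

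**Figure D5:**
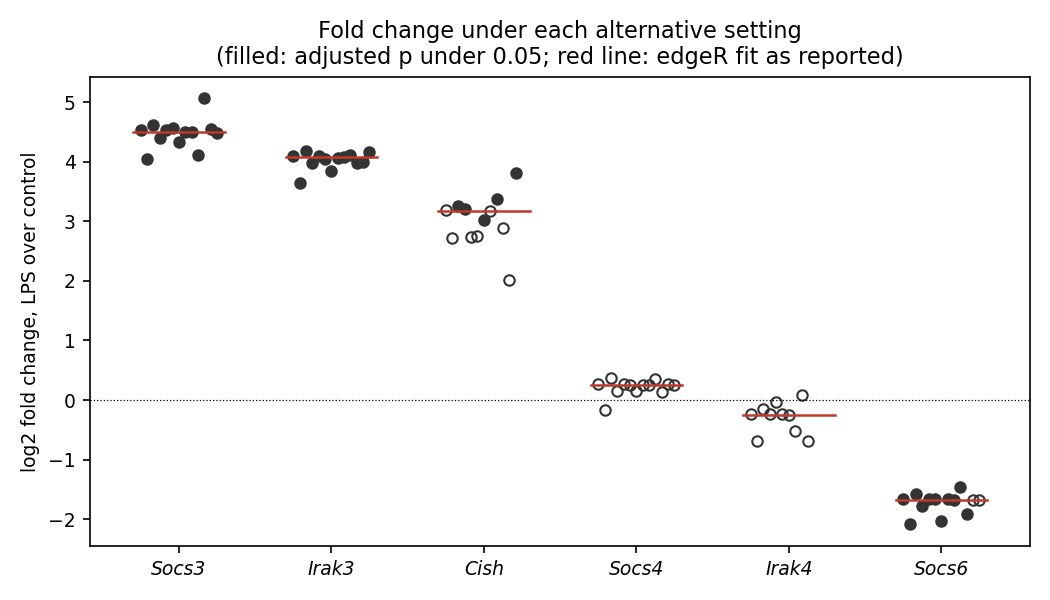
Log2 fold change of LPS over control for the 6 tested members under each alternative setting (points, filled where the adjusted p is under 0.05) and in the fit as reported (red line). The points of Socs3 lie between 4.05 and 5.07 and those of Irak3 between 3.64 and 4.18, all filled. Those of Socs6 lie between -2.09 and -1.46 with 11 of 13 filled, and those of Cish between 2.02 and 3.81 with 5 of 12 filled.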

How the data were processed

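Per the labels' protocols, strand-marking libraries of rRNA-depleted RNA were read from both ends. Build mm10 and the tools HTSeq 0.6.1, Cufflinks 2.2.1, TopHat2 2.0.10, Trimmomatic 0.33 and CASAVA 1.8.2 appear in the submitters' processing notes. The role of each, the strand setting and the counting mode are not stated there, so overlapping and antisense genes cannot be told apart. The authors deposited whole-number counts for 32915 RefSeq accessions. The file name calls them normalized, no method is given, and they were treated as counts. The header names the 4 libraries by their titles but separates the names with spaces where rows use tabs, so columns were read in the order of those names. Accessions were paired with symbols through a RefSeq table of GRCm38.p6 (32487) and GENCODE metadata (187), 241 stayed unnamed, and counts were summed to 24148 genes.

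Genes averaging 10 or more counts per library (9548) were tested with edgeR 4.0.16 (R 4.3.3): TMM scaling, all 4 libraries, no covariate, two-sided. CPM was scaled by TMM. SE is the log2 fold change over the square root of F. Alternatives used limma 3.58.1 and DESeq2 1.42.0. Named were all members and, per list, the 2 called genes that rose most and the 2 that fell most; Il27 and Il6st were added after their values were seen. Members, lists and motifs were chosen with earlier results of these data known. No proteins were analysed here.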

Additional observations from a re-analysis of the deposited data

How the results depend on the processing

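Socs3 and Irak3 stayed higher and called in all 13 alternatives. Without 1 library, values ranged from 4.11 to 5.07 (Socs3), 3.99 to 4.16 (Irak3), -1.91 to -1.46 (Socs6, called in 2 of 4), 2.02 to 3.81 (Cish, called in 2 of 4), 0.13 to 0.35 (Socs4), and -0.69 to 0.086 (Irak4, above 0 without LPS replicate 1, and with 3 values since it fell under the count minimum without control replicate 2). Socs5 ranged from -0.64 to 0.23 and was above 0 without control replicate 2 or LPS replicate 1. Cish was called without a filter (3.26), in DESeq2 (3.20) and with the replicate block (3.02, adjusted p = 5.3e-06). Socs4 was -0.16 with total-count scaling. Genes called were 339 to 660 higher and 33 to 241 lower without 1 library, members called were 2 to 3 higher and 0 to 1 lower, and pathway genes 11 to 14 higher and 0 to 1 lower. The fewest higher genes came without LPS replicate 1, and 33 lower genes, with 0 lower members, without either LPS library. Genes called lower were 483 with total-count scaling, and genes called higher 408 after quantile normalization. Lower pathway genes were 4 with total-count scaling and 2 at a minimum mean of 50. The causes were not tested. Same-numbered libraries deviated together (correlation across genes 0.673), but the labels do not say that numbers mark shared cultures. With the replicate number as a block 1677 genes were higher and 1258 lower, and 27 pathway genes higher and 5 lower. Low counts (7 to 17 per library for Irak4, 6 in each control for Cish) limit what these could show.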

Other observations

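Some cytokine receptor genes of the pathway lists followed the replicate number more than the treatment. They were chosen after their values were seen. Osmr, the receptor chain for oncostatin M, had 20.8 and 108 CPM in LPS replicates 1 and 2, against 10.8 and 45.6 CPM in control replicates 1 and 2. It was thus higher in both libraries numbered 2, as was the summed level of astrocyte markers (96.5 and 447 CPM in LPS, 83.1 and 318 CPM in control). Csf2rb, the shared chain of the receptors for Csf2, interleukin-3 and interleukin-5, had 445 and 224 CPM in LPS replicates 1 and 2, against 493 and 240 CPM in control replicates 1 and 2. Microglia markers summed to 2051 and 1738 CPM in LPS and to 3208 and 2452 CPM in control, and so were higher in number 1 than in number 2 within each group, although control replicate 2 lay above LPS replicate 1. The part of these cell types in the receptor levels was not tested.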
